A study of Mus musculus with 3 samples.

Results

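The cells described here were 206 barcodes picked for transcripts that simple epithelia make, out of 8107 barcodes with at least 500 detected genes in mouse palatal tissue. They were chosen by a rule on measured UMIs. A barcode had to hold a UMI of at least 3 different genes among Epcam, Krt8, Krt18, Cldn7, Cbr2, Bpifa1 and Cdh1, and no UMI of Krt5, Krt14, Krt15, Pomc, Cga, Chga or Pou1f1. The palatal shelves came from C57BL/6J wild-type embryos staged by embryonic day as E13.5, then E14.5, then E15.5, and tissue of 3 embryos was pooled into 1 library per stage. Cells were freed with an enzyme, fixed in methanol and captured in droplets, where each RNA molecule received a unique molecular identifier (UMI). No mutant, treated or sorted group entered these libraries, so the only condition is the stage, and every stage has 1 library. The labels name palatal shelves and do not part their oral from their nasal surface, and nothing says that the embryos of a pool can be told apart.

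Each palatal shelf carries different epithelia on its surfaces. The oral side becomes a stratified squamous epithelium built on basal keratins, while the nasal side becomes respiratory epithelium, a simple or pseudostratified layer of keratin 8 and 18 cells with secretory cells that coat the airway and multiciliated cells that move that coat. The neighbouring olfactory epithelium holds sensory neurons and sustentacular cells, which are non-neuronal support cells rich in detoxifying enzymes.

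At E13.5, 67 of 3692 barcodes met the rule, a share of 1.81% (exact Clopper-Pearson 95% interval 1.41 to 2.30%). At E14.5 there were 47 of 1775, or 2.65% (1.95 to 3.51%), and at E15.5 there were 92 of 2640, or 3.48% (2.82 to 4.26%). The intervals of E13.5 and E15.5 did not overlap, and that of E14.5 overlapped both. The rest of each library differed in makeup, and a share depends on it. Of the other barcodes, 47.4% at E13.5 and 7.69% at E15.5 had 2 or more of 4 neuron markers. The part this plays in the shares was not tested. All such intervals cover counting error in 1 library only, and there is no test between stages. Selected barcodes were deeper than the rest, with a median of 4434, 3677 and 3706 UMIs against 1962, 1873.5 and 1945.5 in the other barcodes, and a rule that asks for several UMIs favours deep barcodes. Their summed totals were 410998, 258714 and 509481 UMIs. Between 1 and 3 barcode sequences were shared by any pair of libraries, and 0 of them were selected barcodes.

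The rule genes describe the selection and carry no test. Epcam, an adhesion molecule of nearly all epithelia, was seen in 66 of 67, 41 of 47 and 79 of 92 selected barcodes. Cldn7, a tight junction claudin, was seen in 63, 43 and 81 of them, and Krt18, a keratin of simple epithelia, in 51, 41 and 77. Krt8, the partner of Krt18, was seen in 26, 21 and 46, and Cdh1, which encodes E-cadherin, in 20, 15 and 42. These 5 genes were therefore present at all stages.

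Cbr2 and Bpifa1, the rule genes that belong to airway lining, were not. Cbr2 (chromosome 11, 120729489 to 120732114 in mm10, minus strand), a carbonyl reductase of airway secretory cells, had 0 UMIs in the E13.5 library, 24 in that of E14.5 (15 barcodes) and 248 in that of E15.5 (38 barcodes), of which 81 lay in 1 barcode. Bpifa1 (chromosome 2, 154142880 to 154149219, plus strand), a secreted protein of the airway surface, had 0, 76 and 231 UMIs in 0, 2 and 12 barcodes. A count of 0 in 67 barcodes allows a share of up to 4.48% with a UMI if 3 barcodes are taken as the limit, and of 5.36% by the exact interval. After each barcode was thinned to 1500 UMIs, the share with a Cbr2 UMI was 0 of 64, 6 of 43 and 26 of 82 (31.7% in the last), and that of Bpifa1 was 0%, 4.65% and 11.0%. As deposited these shares were 0%, 31.9% and 41.3% for Cbr2 and 0%, 4.26% and 13.0% for Bpifa1. In mesenchymal barcodes, which should lack both genes, the thinned shares were 0%, 0.284% and 0.271% for Cbr2 and 0% at all stages for Bpifa1, at median depths of 2963, 1904 and 2062 UMIs. The working name of the group, simple nasal respiratory-type epithelium, is thus not borne out at E13.5. At E14.5 and E15.5 it holds for part of the barcodes at most. There, 22 of 47 and 38 of 92 barcodes had neither gene and fewer than 2 markers each of secretory, multiciliated and sustentacular cells. Of the 38 barcodes with Cbr2 at E15.5, 15 had 2 or more sustentacular markers. The cells are therefore called selected barcodes below.

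The threshold of 3 genes cut through a continuous range. Exactly 3 genes were seen in 44, 24 and 35 of the selected barcodes, and 79, 51 and 57 barcodes just outside the rule had exactly 2 and no UMI of an exclusion gene. Of the barcodes with 3 or more of the genes, 43, 28 and 53 were turned away by an exclusion gene. At E13.5 the commonest of these genes was Chga, a neuroendocrine granule protein, in 24 barcodes, while at E15.5 a basal keratin (Krt5, Krt14 or Krt15) was present in 44.

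What the selected barcodes hold beyond the rule was read from markers of other cell kinds, where a barcode counted for a kind when it had a UMI of at least 2 of its markers outside the rule. Secretory markers (Reg3g, Scgb1c1, Muc5b, Wfdc2, Wfdc18 and Bpifb1) reached this in 1, 9 and 26 barcodes from the first to the last stage. Multiciliated markers did so in 0, 7 and 12 barcodes, and sustentacular markers (Cyp2g1, Ermn, Sult1c1 and Cyp1a2, the last at 0 UMIs throughout) in 0, 7 and 17. In the other barcodes the same shares never exceeded 1.10% for any of these 3 kinds. At least 1 of these 3 kinds was reached by 1 of 67, 21 of 47 and 45 of 92 selected barcodes. Depth bears on these shares, since selected barcodes were the deeper ones. Thinned to 1500 UMIs, secretory markers reached 2 genes in 0%, 6.98% and 12.2% of selected barcodes, multiciliated markers in 0%, 9.30% and 9.76% and sustentacular markers in 0%, 6.98% and 7.32%. In the other barcodes, thinned alike, none of the 3 kinds exceeded 0.476%. The stratified oral markers outside the rule (Krt6a, Krt13, Krtdap and Trp63) reached 2 genes in 0 barcodes at every stage.

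Markers of cells that the dissection or a droplet could add were present as well. At least 2 of 4 neuron markers (Tubb3, Stmn2, Elavl3, Elavl4) were seen in 23 of 67, 9 of 47 and 9 of 92 selected barcodes, and at least 2 of 8 olfactory neuron markers in 15, 11 and 11. In the other barcodes the shares were 47.4%, 9.38% and 7.69% for neuron and 15.6%, 11.4% and 8.67% for olfactory neuron markers. Thinned to 1500 UMIs, the neuron shares were 12.5%, 9.30% and 4.88% in selected and 39.7%, 8.10% and 6.64% in other barcodes. Pituitary markers reached 2 genes in 6, 0 and 2 barcodes, otic markers in 3, 2 and 0, and choroid plexus markers in 0, 0 and 4. Pituitary shares were 8.96%, 0% and 2.17% of selected and 1.21%, 1.56% and 1.26% of other barcodes. Otic shares were 4.48%, 4.26% and 0% against 0.469%, 0.810% and 0.157%. Choroid plexus shares were 0%, 0% and 4.35% against 0%, 0.0579% and 0.0392%. Thinned to 1500 UMIs, pituitary markers at E13.5 stood at 6.25% against 0.569%, and otic markers at 0% against 0.175%. At least 2 of 6 mesenchyme markers were seen in 8, 14 and 22 selected barcodes, which is 11.9%, 29.8% and 23.9%, against 20.2%, 74.6% and 75.1% of the other barcodes. The summed mesenchyme level was 280 CPM (UMIs per 1000000 UMIs of the summed barcodes) in the first library, 1430 in the second and 1399 in the third, and 608, 6068 and 6756 CPM in the other barcodes. Globin transcripts were spread over the library, since 79.1%, 78.7% and 82.6% of selected and 68.0%, 74.9% and 78.2% of other barcodes had 2 or more of 4 globin genes. The part these other cells or free RNA play in the values below was not tested.

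**Figure D1:**
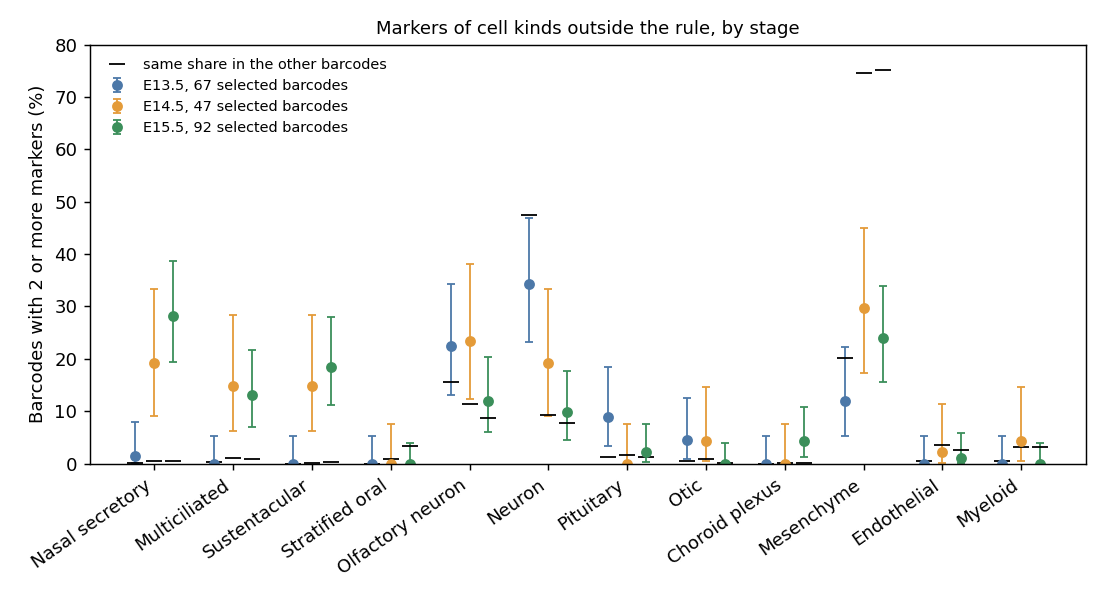
Share of selected barcodes with UMIs of 2 or more markers of each cell kind (vertical axis, percent), by stage, with exact 95% intervals for counting error; black dashes give the same share in all other barcodes of that library. Secretory, multiciliated and sustentacular markers are at or near 0 at E13.5 and lie between 13.0% and 28.3% at E14.5 and E15.5, while neuron markers are at 34.3% at E13.5 and 9.78% at E15.5; these shares are not thinned.

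The kinds overlapped only in part within barcodes. At E15.5, 0 of the 17 barcodes with sustentacular markers held Bpifa1, a rule gene whose overlaps are given as a description, and 8 of the 12 barcodes with Bpifa1 were among the 26 with secretory markers. At E14.5, in contrast, 1 of the 7 barcodes with sustentacular markers held Bpifa1, with 32 of the 76 UMIs. Cbr2, also a rule gene, was held by 4 of these 7 barcodes and by 15 of the 17 at E15.5. Of the barcodes with secretory markers, 6 of 9 at E14.5 and 15 of 26 at E15.5 held it. Multiciliated and secretory markers met in 0 barcodes of the middle and 6 of the last stage, and multiciliated and sustentacular markers in 0 and 2. Secretory and sustentacular markers met in 2 and 4. Neuron and olfactory neuron markers were found together in 13, 7 and 8 barcodes. The map of single barcodes shows where these genes fall together and where they fall in different barcodes.

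**Figure D2:**
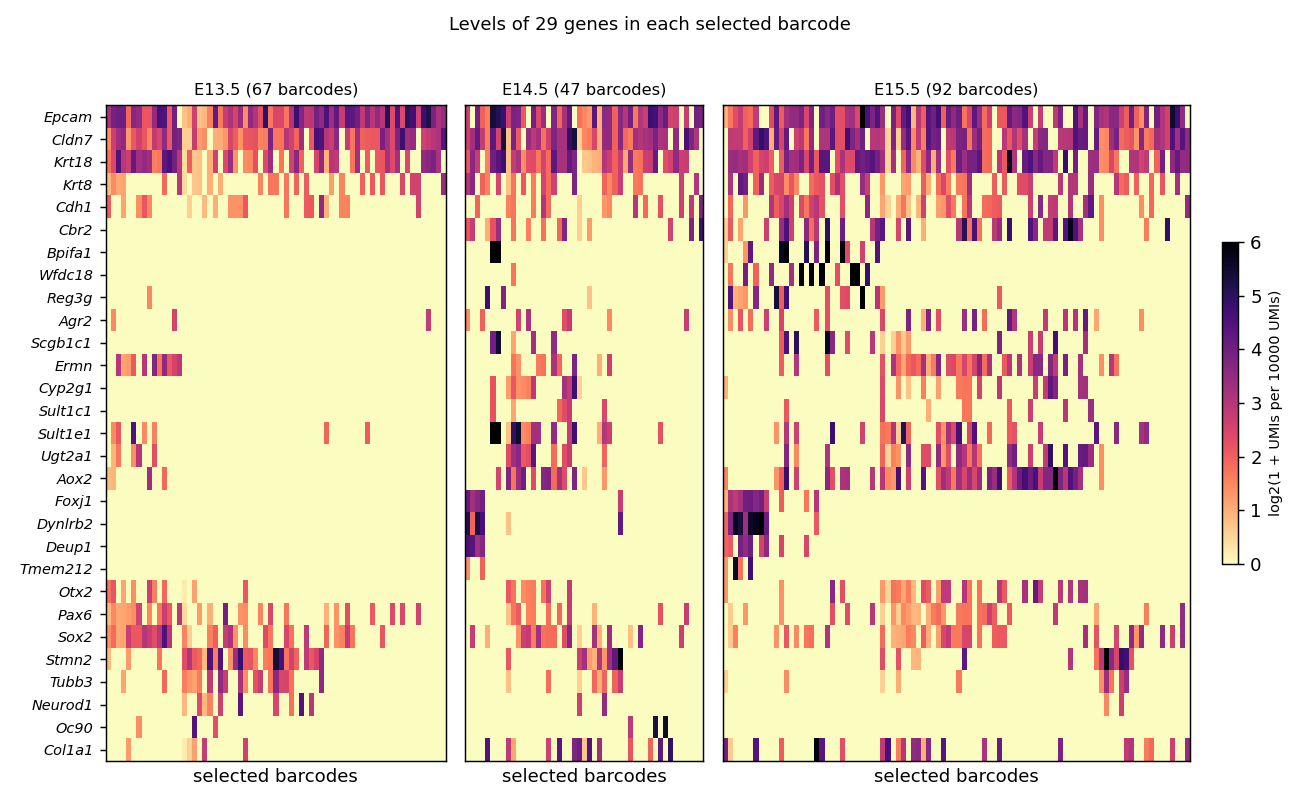
Level of 29 genes (rows) in each selected barcode (columns), as log2(1 + UMIs per 10000 UMIs) with the colour scale capped at 6, in 3 panels by stage; columns are ordered by whether ciliary, secretory, sustentacular or neuronal genes take the largest share of their UMIs. Foxj1, Dynlrb2, Deup1 and Tmem212 form a block of few barcodes at E14.5 and E15.5 and are blank at E13.5.

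Several secretory products were scarce at E13.5 and abundant at E15.5, though not all in the same barcodes. Wfdc18, a secreted whey acidic protein domain protein, had 0, 2 and 317 UMIs at the 3 stages in order, the last spread over 12 barcodes with 124 in the highest. Its level at E15.5, 622 CPM, was at least 85.2-fold higher than the limit of 3 UMIs at E13.5. Scgb1c1, a secretoglobin, had 0, 22 and 71 UMIs in 0, 5 and 17 barcodes, at least 19.1-fold higher in the last than in the first library. Reg3g, an antimicrobial lectin, had 1, 28 and 122 UMIs, but 26 of the 28 at E14.5 came from 1 barcode. Reg3g was 98.4 times as high at the last stage as at the first, with a counting interval from 17.3 to 3919, since it rests on 1 UMI. Agr2, a protein disulfide isomerase of mucus-making cells, had 4, 13 and 92 UMIs, or 9.73, 50.2 and 181 CPM. Muc16, a membrane mucin of airway surfaces, had 0, 3 and 26 UMIs. Each of these 5 genes had at most 4 UMIs at E13.5 and its highest level at E15.5. The E15.5 barcodes with 124, 72, 35, 31 and 19 Wfdc18 UMIs held 0 UMIs of Bpifa1, Reg3g, Agr2 and Scgb1c1.

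Other secretory genes were already present at E13.5. Wfdc2, an airway antiprotease-like protein, stood at 136 CPM (exact Poisson interval 103 to 177) in 32 of 67 barcodes, then at 186 and 304 CPM. Gsta4, a glutathione transferase, was at 117, 61.8 and 210 CPM. Several products of the adult airway were not seen or scarce: Scgb1a1, Scgb3a2, Muc5ac, Bpifb1 and Tff3 had 0 UMIs at all stages, and Muc5b had 1. Cyp2f2, a cytochrome P450 of club cells, was present, with 0, 16 and 34 UMIs in 0, 7 and 17 barcodes. After thinning it was seen in 0%, 4.65% and 12.2% of selected barcodes, against at most 0.181% of mesenchymal ones. Over the 32 listed secretory genes, which include Cbr2 and Bpifa1 of the rule, 6 had no UMI at any stage. Of the 9 outside the rule that reached 50 CPM in E13.5 or E15.5, 8 were over 2-fold higher at E15.5 and 0 were lower, with 1 CPM added to both stages. For all genes at that level the background was 11.9% over 2-fold higher and 8.51% over 2-fold lower, 581 and 417 of 4901 genes. The median log2 ratio of the list was 4.10 over 14 genes without the rule genes and 4.31 over 16 with them, beside 0.01 over 12126 genes with a mean of at least 5 CPM.

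Several defining ciliary genes had 0 UMIs at the first stage and were present at the second. Of the 35 listed multiciliated genes, 23 nevertheless had a UMI at E13.5, at a summed 365 CPM. Foxj1 (chromosome 11, 116330704 to 116335399, minus strand), the transcription factor that drives motile cilia, had 0, 23 and 58 UMIs in 0, 5 and 12 barcodes. Dynlrb2, a dynein light chain of cilia, had 0, 46 and 169 UMIs in 0, 6 and 10 barcodes, and its level of 332 CPM at E15.5 was at least 45.4-fold higher than the limit at E13.5. Deup1, which builds the deuterosomes from which basal bodies are multiplied, had 0, 27 and 45 UMIs. Rsph1, a radial spoke protein, had 3, 13 and 53, and Lrrc23, another spoke protein, had 1, 4 and 50. Ccdc153 and Tmem212 stayed at 1 and 2 UMIs in the E14.5 library and had 48 and 62 in the next, although 47 of the 62 Tmem212 UMIs lay in 1 barcode. Rfx3, a ciliary transcription factor that many cell types use, was at 187, 286 and 253 CPM, against 287, 269 and 268 CPM in the other barcodes. Of 18 listed multiciliated genes at 50 CPM or more, 16 were over 2-fold higher in the last library than in the first and 0 lower, and the median log2 ratio was 3.43 over 33 genes.

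Genes that were not used to mark these barcodes mostly had their higher level in the marked ones. Of 27 listed multiciliated genes outside the markers, 23 had a UMI at E14.5 and 21 of these were at a higher CPM in the marked barcodes, and at E15.5 this held for 27 of 27. Over all genes outside the rule with a UMI, 41.5% and 45.8% were at a higher CPM in the marked barcodes of the 2 stages. The exceptions at E14.5 were Gmnc, with 0 UMIs in the marked and 2 in the other barcodes, and Drc1, with 0 and 1. At E15.5 the 12 barcodes with 2 or more multiciliated markers held all 42 selected UMIs of Fam183b (30 of them in 1 barcode), all 50 of Lrrc23, all 17 of Hydin and all 28 of Spag6l, and the other 80 selected barcodes held 0 of each. Mcidas, which starts the multiciliated programme together with Gmnc and acts on Ccno and Myb, had 12 UMIs in the 7 marked barcodes of E14.5 and 0 in the other 40. At E15.5 it had 6 UMIs in the marked barcodes and 2 in the others, while Gmnc had 2 and 3. Deup1 had 27 and 40 UMIs in the marked barcodes of the middle and last stage and 0 and 5 in the others. Sntn, of the ciliary tip, was seen in 1 barcode, with 14 UMIs at E15.5. Early genes of centriole multiplication and axoneme genes were thus present at both stages, and Sntn in a single barcode. At E14.5 the marked barcodes held 11 UMIs of Spag6l and 3 of Hydin.

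Promoters of ciliary genes are known to carry sites for RFX transcription factors, whose half-site is GTTGCC. That run of 6 letters was searched on both strands in the 250 bases before each RefSeq start (GRCm38.p6). Matches were found for 17 of the 31 listed multiciliated genes that have a window, or 54.8%, and for 1 of 23 secretory, 2 of 19 junction and 0 of 17 simple epithelium genes. Over all genes with a window the share was 11.8%, 3195 of 27025. A match describes the letters and is no sign of binding. Windows of 4 ciliary genes whose levels were highest at E14.5 or E15.5 are printed 5′ to 3′ on the strand of the gene, with the match in capitals. All 4 are among the genes with a match, and no window without one is printed. The Dynlrb2 window is chr8:116504765-116505014 on the plus strand with the match starting 51 bases before the start, and that of Ccdc153 is chr9:44240427-44240676 on the plus strand with the match 152 bases before it. The Pifo window is chr3:106001498-106001747 on the minus strand with the match 12 bases before the start, and that of Deup1 is chr9:15627847-15628096 on the minus strand with the match at 79 bases.
Dynlrb2: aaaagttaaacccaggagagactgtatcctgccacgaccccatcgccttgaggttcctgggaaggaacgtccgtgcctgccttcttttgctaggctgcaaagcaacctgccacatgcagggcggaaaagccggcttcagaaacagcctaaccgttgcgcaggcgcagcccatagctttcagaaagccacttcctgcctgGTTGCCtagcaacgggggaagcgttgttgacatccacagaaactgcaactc
Ccdc153: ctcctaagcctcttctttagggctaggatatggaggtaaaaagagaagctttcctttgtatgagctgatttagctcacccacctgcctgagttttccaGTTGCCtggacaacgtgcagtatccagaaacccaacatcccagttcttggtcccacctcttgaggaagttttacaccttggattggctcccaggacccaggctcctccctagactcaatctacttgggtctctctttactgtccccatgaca
Pifo: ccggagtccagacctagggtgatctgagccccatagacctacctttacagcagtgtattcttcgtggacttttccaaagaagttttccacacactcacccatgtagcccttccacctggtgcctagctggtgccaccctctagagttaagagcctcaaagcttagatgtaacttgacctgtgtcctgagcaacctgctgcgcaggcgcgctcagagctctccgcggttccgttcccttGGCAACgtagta
Deup1: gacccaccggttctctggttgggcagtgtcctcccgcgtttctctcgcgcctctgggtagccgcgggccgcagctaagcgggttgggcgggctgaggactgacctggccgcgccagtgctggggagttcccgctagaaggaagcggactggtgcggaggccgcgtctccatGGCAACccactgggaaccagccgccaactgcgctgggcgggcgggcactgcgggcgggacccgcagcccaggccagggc
In Dynlrb2 and Ccdc153 the match reads GTTGCC along the gene's strand, and in Pifo and Deup1 it reads GGCAAC, the same letters on the other strand.

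Sustentacular and detoxifying genes were the third group. Of 9 listed genes of sustentacular cells and Bowman's gland, 6 had no UMI in the selected barcodes at any stage (Cyp1a2, Gpx6, Obp1a, Obp2a, Obp2b and Cyp2a4), so the list rests on Ermn, Cyp2g1 and Sult1c1. Ermn, a cytoskeletal protein of sustentacular cells, was present from the start, with 28, 14 and 117 UMIs in 11, 9 and 36 barcodes and 68.1, 54.1 and 230 CPM. The last stage was 3.37 times the first (counting interval 2.22 to 5.29). Cyp2g1, an olfactory cytochrome P450, and Sult1c1, a sulfotransferase, had 0, 18 and 43 UMIs and 0, 8 and 28 UMIs. The deepest E15.5 barcode, with 41784 UMIs, held 18 of the 43 and 19 of the 28. Sult1e1, the estrogen sulfotransferase, was at 58.4, 464 and 343 CPM, and 13 of its 24 UMIs at E13.5 lay in 1 barcode. Aox2, an aldehyde oxidase, was at 19.5, 216 and 469 CPM, a ratio of 24.1 (12.04 to 56.5). Ugt2a1, an olfactory glucuronosyltransferase that shares exons with a neighbour of its family and is therefore uncertain, was at 24.3, 151 and 198 CPM. After thinning, Sult1e1 was seen in 4.69%, 23.3% and 19.5% of selected barcodes and Aox2 in 3.12%, 18.6% and 36.6%, against at most 0.568% of mesenchymal barcodes for either.

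At E15.5 the 17 barcodes with 2 or more sustentacular markers had 1105 CPM of Aox2 and 537 of Ugt2a1, beside 246 and 79.5 CPM in the other 75. Sult1e1 was at 242 CPM in the 17 and 379 CPM in the 75, but 57 of the 143 UMIs of the 75 lay in 1 barcode, and without it they were at 239 CPM. At E14.5 Sult1e1 was at 3058 CPM in the 7 marked and 172 CPM in the other 40. At E15.5 the 17 held 0 UMIs of Bpifa1, Wfdc18, Foxj1, Dynlrb2 and Olfm5. Their level of Cbr2, a rule gene, was 1211 CPM, beside 233 CPM in the other 75. Without the highest barcode of each set these levels were 874 and 202 CPM. At E14.5 the 7 held 32 Bpifa1 UMIs in 1 barcode and both Wfdc18 UMIs of that stage. The 11 barcodes with an Ermn UMI at E13.5 had 482 CPM of Sox2 and 393 of Otx2os1, beside 158 and 39.4 CPM in the 56 without one, at median depths of 4945 and 4394 UMIs. Sult1e1 was likewise at 322 and 16.9 CPM in those 2 sets, but 13 of its 18 UMIs in the set with Ermn lay in 1 barcode. Aox2 was not higher in the set with Ermn, at 17.9 and 19.7 CPM, and Hes1, a Notch target, was lower, at 500.3 and 710 CPM. Over all 9186 genes outside the rule with 5 or more UMIs, 45.9% were at a higher level in the set with Ermn. These values come from 1 library, with 27 Sox2 UMIs and 1 Aox2 UMI in the smaller set.

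**Figure D3:**
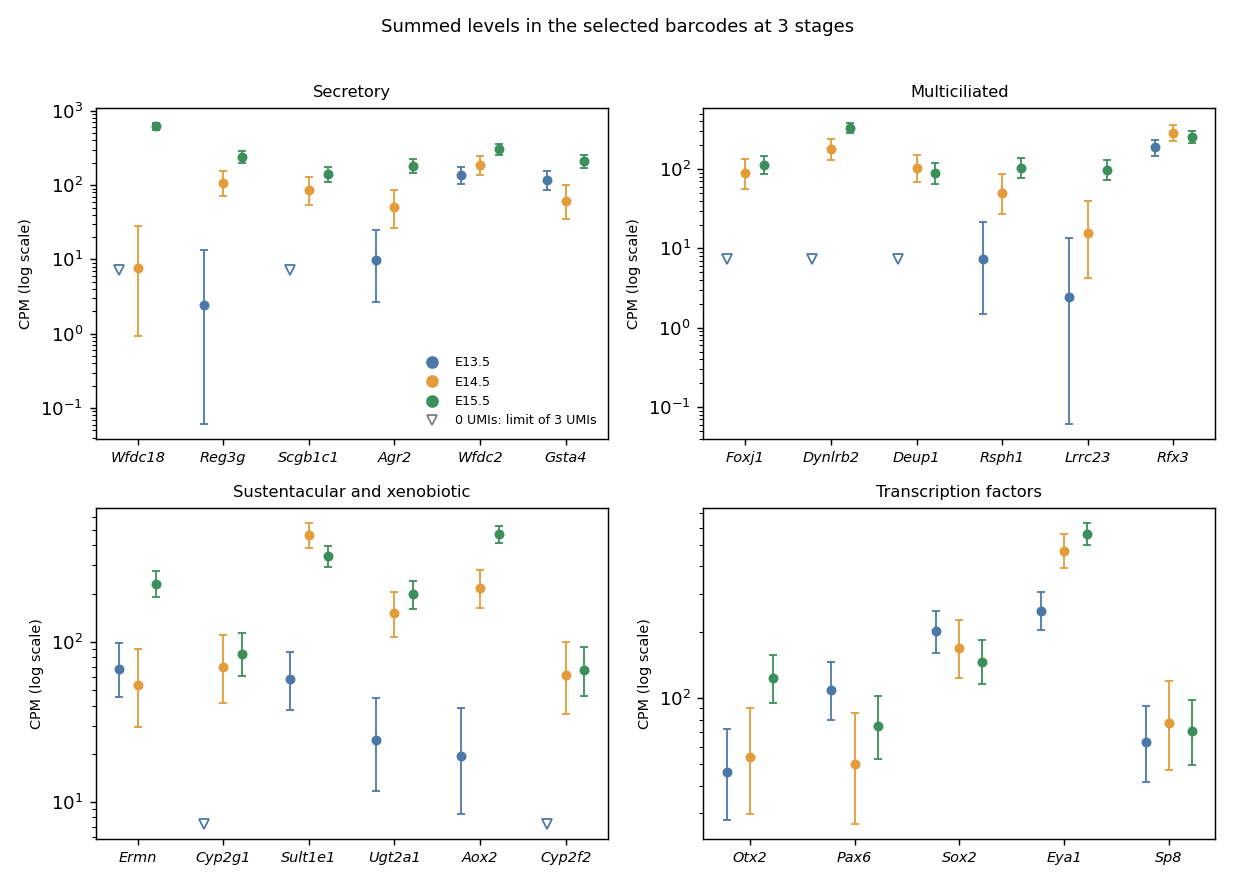
Levels of 23 genes summed over the selected barcodes of each stage (CPM, log scale), with exact Poisson 95% intervals; open triangles mark genes with 0 UMIs at the limit that 3 UMIs would give. Wfdc18, Scgb1c1, Foxj1, Dynlrb2, Deup1, Cyp2g1 and Cyp2f2 have triangles at E13.5, while the intervals of Sox2 and Sp8 overlap at the 3 stages.

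Transcription factors of the sensory placodes, which form the olfactory and other cranial epithelia, differed less between stages. Sox2, of neural and sensory progenitors, was at 202, 170 and 147 CPM. Pax6, needed for eye and nasal placodes, was at 109, 50.2 and 74.6 CPM in 28, 11 and 29 barcodes. The intervals of E13.5 and E15.5 overlapped for both genes. In the subset without genes of other epithelia or neurons, described below, Sox2 was at 205, 197 and 86.5 CPM. Pax6 was at 154, 123 and 100 CPM there. In the other barcodes Sox2 was at 104, 23.7 and 17.7 CPM. Otx2, a head homeobox factor, was higher at E15.5, with 46.2, 54.1 and 124 CPM, a ratio of 2.67 (1.58 to 4.73). Otx2 (chromosome 14, 48657677 to 48673819, minus strand) overlaps Otx2os1 (48668708 to 48870683, plus strand) on the opposite strand. Whether the counting used the strand is not given in the sources used here, so their reads may not be fully separate. Eya1, a transcriptional cofactor of the placodes, was at 251, 472 and 563 CPM, over 2-fold higher at E15.5. Of 12 listed placode genes at 50 CPM or more, 2 were over 2-fold higher and 1 lower at E15.5 than at E13.5, with a median log2 ratio of 0.07 over 19 genes. Both counts are near the shares of all genes, 11.9% and 8.51%.

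The same libraries hold stratified epithelium, taken as barcodes with a UMI of at least 2 of Krt5, Krt14 and Krt15, which allows a comparison of the 2 kinds of epithelium within each stage. There were 7, 44 and 151 such keratin-positive barcodes, and the E13.5 group totals only 34605 UMIs. UMIs were summed per library and kind and tested with edgeR's quasi-likelihood test with the library as a block, over 3 libraries and without the 14 rule genes. At a Benjamini-Hochberg adjusted p under 0.05, 108 of 6500 genes (1.66%) were higher and 78 (1.20%) lower in the selected barcodes. Since the exclusion genes define both sides, genes that travel with basal keratins are not independent of the rule.

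Sult1e1 had the largest fold among the higher genes, with 58.4, 464 and 343 CPM in the selected barcodes and 0, 6.50 and 4.38 CPM in the keratin-positive ones. Its log2 fold change was 6.19 (SE 0.46, edgeR adjusted p = 9.3e-06), and it was higher at E14.5 and E15.5. Otx2os1 was at 87.6, 560 and 661 CPM against 0, 9.75 and 11.7, a log2 fold change of 5.84. Slc27a2, which activates very long fatty acids, was at 38.9, 96.6 and 175 CPM against 0, 0 and 7.30. Ermn, Aox2 and Crym, a thyroid hormone binding protein, had log2 fold changes of 4.71, 4.07 and 4.35. In all 6 genes the selected barcodes were above the keratin-positive ones at E14.5 and E15.5. At E13.5 the keratin-positive barcodes had 0 UMIs of each, but 3 UMIs there would be 86.7 CPM, and the selected barcodes exceeded that limit for Otx2os1 alone, at 87.6 CPM. Across stages Aox2 overlapped, since its 19.5 CPM in selected barcodes at E13.5 lay below 37.97 CPM in keratin-positive ones at E15.5.

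Transcription factors, channels and shape genes were among the other higher genes. Pax6 and Sp8 had log2 fold changes of 4.04 and 3.83, Otx2 had 3.28, and Eya1 had 1.44. Among listed placode factors 4 of 12 tested were higher and 0 lower, with a median log2 fold change of 1.44 beside 0.02 for all tested genes. Shroom3, which drives apical constriction, was at 99.8, 390 and 428 CPM against 0, 13.0 and 52.6. Espn, an actin bundler of microvilli, had a log2 fold change of 3.40, the potassium channel Kcnk2 had 3.35, and Prr15 had 3.95. Cldn3 and Cldn6, tight junction claudins, had 2.95 and 2.27, and Reg3g had 3.02 (edgeR adjusted p = 0.042). Of the 15 tested junction genes, however, 3 were higher, 2 lower and 10 not called, at a median of -0.22. Ggt7, Galnt14 and the long noncoding C130071C03Rik complete the 15 highest at a mean of 50 CPM or more in the selected barcodes.

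Genes lower in the selected barcodes included basal and cornifying ones, and also others such as Egfem1, at a log2 fold change of -3.42. Trp63, the master factor of stratified epithelium, was at 14.6, 11.6 and 5.89 CPM in the selected and 116, 159 and 248 CPM in the keratin-positive barcodes, a log2 fold change of -4.10 (SE 0.50, edgeR adjusted p = 0.00063). Krt17 was at -4.87, Lgals7, an epidermal galectin, at -4.90, and the hemidesmosome collagen Col17a1 at -4.34. Tmprss11a, a squamous serine protease, had 0 UMIs in the selected barcodes and 46 in the keratin-positive ones, which makes it at least 17.6-fold lower over the 3 libraries together. Of the 14 tested genes of the stratified list 12 were lower and 0 higher, at a median of -2.80. Desmoplakin (Dsp) was at -2.35.

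**Figure D4:**
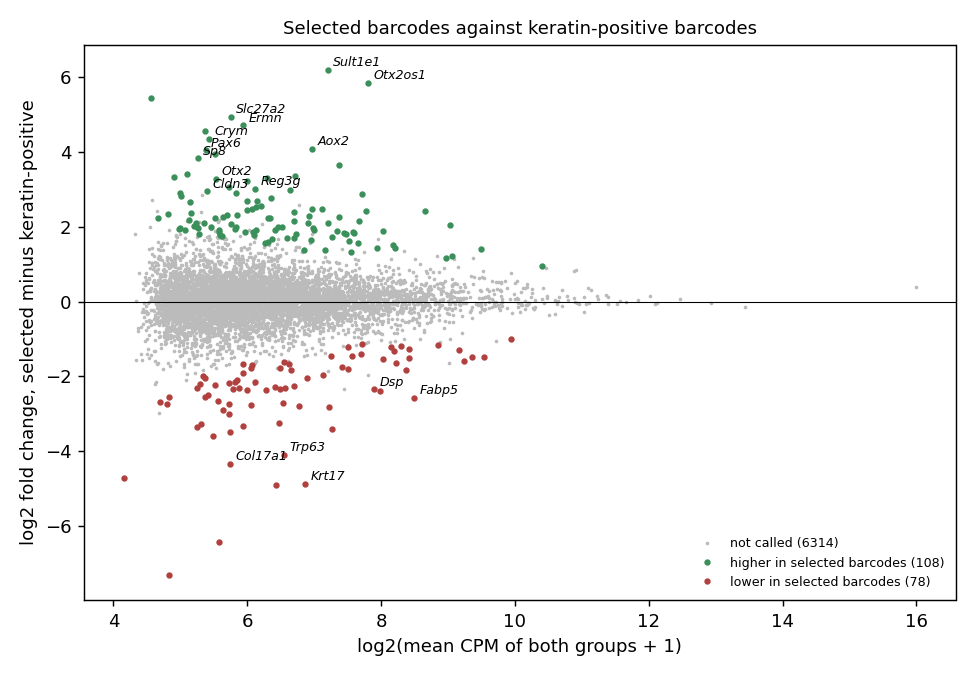
Each tested gene by its mean level in selected and keratin-positive barcodes (horizontal, log2) and by its log2 fold change between them (vertical, edgeR, 3 libraries); colours mark genes at an adjusted p under 0.05. The 108 higher genes include Sult1e1, Otx2os1 and Ermn at the top and the 78 lower ones include Krt17 and Trp63; both counts depend on which libraries enter.

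Fewer calls fell in the airway and simple epithelium lists. Of these, 1 of 5 tested secretory genes and 1 of 7 multiciliated genes (Reg3g and Myb) were called higher, the latter with a list median of 2.16. Foxj1 and Dynlrb2 were at 0, 78.04 and 0 CPM and at 0, 140 and 2.92 CPM in keratin-positive barcodes, so at E14.5 those barcodes held them too, and their edgeR adjusted p were 0.28 and 0.18. Of 12 tested simple epithelium genes 1 was higher, and that was Atp1b1, the beta subunit of the sodium pump, at a log2 fold change of 1.99, while the list median was -0.13. Wfdc2, Spint2, Grhl2 and Ezr did not pass the threshold, with log2 fold changes of 0.97, 1.10, -0.04 and 0.75. For the cell cycle lists 0 of 11 S phase and 0 of 12 G2 and M phase genes passed.

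Both counts moved with the libraries and the model. Without E13.5, where the keratin-positive side is 7 barcodes, 486 genes were higher and 421 lower. Without E14.5 the counts were 75 and 48, and without E15.5 they were 36 and 24. Crym, Pax6, Prr15, Sp8 and Espn were not called without E15.5, at edgeR adjusted p between 0.0632 and 0.607. DESeq2 called 40 and 40, and edgeR without a term for the library 21 and 32.

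Against all other barcodes of the same library, of which 20.2%, 74.6% and 75.1% had 2 or more mesenchyme markers, the same test called 616 of 13012 genes higher (4.73%) and 651 lower (5.00%). Here Olfm5, of the olfactomedin family, had the largest fold among higher genes, with 21.9, 61.8 and 137 CPM against 0.188, 0.830 and 3.41, a log2 fold change of 5.73 (SE 0.43, edgeR adjusted p = 3.9e-06). Its UMIs came from only 2, 4 and 6 barcodes. Ugt2a1 had 5.30, Aox2 4.78, Wfdc18 4.74 and Sult1e1 4.66. Tmem213 was at 9.73, 116 and 196 CPM against 0.376, 7.47 and 5.45, and Atp6v1c2, a subunit of the proton pump, at 21.9, 96.6 and 120 against 1.60, 2.28 and 6.27. A2ml1, Agr2, Agr3, Scgb1c1, Reg3g, Ermn, Otx2os1 and Deup1 had log2 fold changes from 3.86 to 4.46. These 15 genes are the highest at a mean of 50 CPM or more in the selected barcodes. Of them, Wfdc18, Scgb1c1 and Deup1 were higher in 2 of 3 libraries, because they had 0 UMIs in the selected barcodes of E13.5.

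By group, 8 of 10 tested secretory genes, 15 of 26 multiciliated, 12 of 18 placode, 18 of 26 junction and 11 of 20 simple epithelium genes were higher and 0 lower in each. The epithelial transcription factors Grhl2, Ehf and Elf5 had log2 fold changes of 2.61, 3.01 and 4.29 and were among 9 of 16 that were higher. The 3 lower ones were Tbx3, Zeb1 and Zeb2, the last 2 being repressors of epithelial genes. Of the 8 mesenchyme genes 7 were lower. The makeup of the other barcodes thus differed between stages, and the epithelial genes are carried by cells that the rule picked for epithelial transcripts. Without the selected barcodes that held 2 or more mesenchyme or neuron markers, 1066 genes were higher and 1572 lower. Without a term for the library the fit called 0 and 0, although 1625 genes had an unadjusted p under 0.05.

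Surface, transport and junction genes are given next, as counts over 2-fold between the first and last stage. Over all genes at 50 CPM or more, 11.9% were over 2-fold higher and 8.51% lower. Among listed simple epithelium genes at that level, 6 of 9 outside the rule were over 2-fold higher in the last library than in the first and 0 lower. Spint2, an inhibitor of surface proteases, was at 131, 259 and 400 CPM, and St14, the protease matriptase, at 14.6, 23.2 and 78.5 CPM. Of the ion and water transport genes 6 of 7 were over 2-fold higher. The water channels Aqp3, Aqp4 and Aqp5 were at 26.8, 77.3 and 124 CPM, at 4.87, 34.8 and 70.7 CPM, and at 2.43, 23.2 and 76.5 CPM. Atp1b1 was at 77.9, 108 and 239 CPM, a ratio of 3.08 (2.07 to 4.69). Of the junction genes outside the rule 2 of 11 were over 2-fold higher, a share near that of all genes, with a median log2 ratio of 0.62 over 26 genes.

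General epithelial factors and signals showed a mixed picture. Grhl2, a grainyhead factor of epithelial barriers, was at 53.5, 120 and 116 CPM, and Elf3 at 9.73, 23.2 and 56.9. Of 8 epithelial transcription factors at that level 3 were over 2-fold higher and 1 lower. Crabp2, which carries retinoic acid, was at 304, 186 and 265 CPM, and Aldh1a3, which makes retinoic acid, at 65.7, 3.87 and 41.2 CPM with 10 of 21 UMIs at E15.5 in 1 barcode. In the signalling list 1 of 10 genes was over 2-fold higher and 0 lower, which is near the 11.9% and 8.51% of all genes. The S phase list had a median log2 ratio of -0.52 with 4 of 11 genes over 2-fold lower, and the G2 and M phase list had -0.18 with 1 of 12.

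The study also asked about Pax9 and sclerostin in the palate, and their genes are given here with those of a pair of palatal epithelial signals. Pax9, a factor needed for palate growth, had 7, 15 and 13 UMIs, or 17.0, 58.0 and 25.5 CPM, against 16.3, 88.0 and 110 CPM in the other barcodes. Sost, which encodes sclerostin, had 0 UMIs at every stage. Shh, a signal of the palatal ridges, had 1, 0 and 0 UMIs, and Tgfb3, made by the fusing medial edge, had 9, 3 and 10. The selected barcodes thus held few UMIs of all 4 genes.

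**Figure D5:**
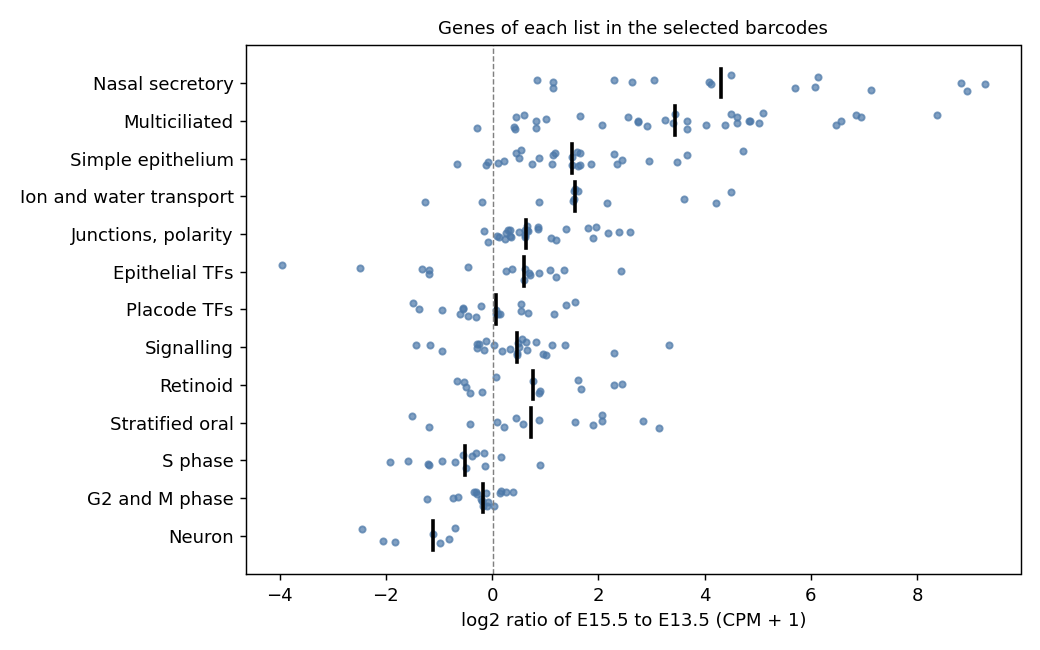
Last stage over first, as a log2 ratio in the selected barcodes (1 CPM added) for every gene of 13 lists with a mean of at least 5 CPM; points are genes, black bars the list medians, and the dashed line the median of all genes at that level. Among these 13 lists, secretory and multiciliated genes lie furthest to the right, with medians of 4.31 (Cbr2 and Bpifa1 of the rule included) and 3.43, and the neuron list lies to the left at -1.11. The sustentacular list, with 3 genes at that level, is not shown and has a median of 5.81.

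Over all genes at 50 CPM or more in the higher stage, E14.5 differed from E13.5 by over 2-fold upward in 539 of 4921 genes (11.0%) and downward in 414 (8.41%). E15.5 differed from E14.5 upward in 274 of 4877 (5.62%) and downward in 257 (5.27%). These counts have no replicate check, and the counting interval of the ratio excluded 1 for 484 and 355 of the genes in the earlier step. Secretory genes outside the rule were over 2-fold higher in 4 of 6 at the earlier step and 6 of 9 at the later one, and multiciliated genes in 8 of 10 and 8 of 18, with 0 lower in each.

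The 10 largest differences upward from E13.5 to E15.5 (100 CPM or more in 1 of the pair) were all in genes with 0 UMIs at E13.5. Cbr2 and Bpifa1 are among them but belong to the rule. Besides Wfdc18, Dynlrb2, Scgb1c1, Tmem212 and Foxj1 the others were S100a1, Svopl and Gm13598. S100a1, a calcium-binding protein, had 0, 29 and 85 UMIs, and Svopl had 0, 23 and 64. Gm13598 had 0, 0 and 60, of which 34 lay in 1 barcode.

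The largest differences downward at the same level were embryonic globins and mostly neuronal genes. Hbb-y had 686, 40 and 3 UMIs and Hba-x 106, 47 and 2, but 320 of the 686 lay in 1 barcode of E13.5. Nrxn3, a presynaptic adhesion protein, had 601, 15 and 19 UMIs, and Grik2, a kainate receptor subunit, had 165, 6 and 3. Egfem1 had 47, 0 and 0 UMIs, with 31 of the 47 in 1 barcode. Fam155a, Anks1b, Nrg3, Ptprn2 and Neurod1 complete the 10, with smaller differences. Levels in the other barcodes differed in the same direction, with Nrxn3 at 2740, 69.3 and 126 CPM there and at 1462, 58.0 and 37.3 CPM in the selected ones. A single E13.5 barcode with 57975 UMIs, 14.1% of the selected total, held 279 of the 601 Nrxn3 UMIs and 4 Epcam UMIs. Barcodes with 2 or more neuron markers at E13.5 carried 559 of the 601, and their Epcam level was 369 CPM beside 1378 CPM in the 44 others.

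With barcodes of 2 or more otic, choroid plexus, pituitary, olfactory neuron or neuron genes left out, 30, 26 and 59 selected barcodes remained. Anks1b, at 66, 5 and 2 UMIs in all selected barcodes, then had 0, 1 and 2, which is under the limit of 3 UMIs at every stage and gives no direction. Nrxn3, with 19, 0 and 9 UMIs there, was lower at E15.5 than at E13.5, at a log2 ratio of -1.96. In that subset the multiciliated median was 5.23 between the first and last stage, and between the later pair of stages it changed sign, from 0.55 to -0.30. Sult1e1 was at a log2 ratio of 0.57 there, beside 2.54 in all selected barcodes.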

How the data were processed

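The deposited files hold raw UMI counts per gene and barcode for 3 libraries, made by the authors with Cell Ranger 6.1.2 on mm10, per the file headers and the submitters' processing notes; strand use in counting is not given in the sources used here. Barcodes with at least 500 detected genes were kept, and CPM were computed from UMIs summed over barcodes. The members and gene lists were chosen with earlier results of these data known. Summed counts were tested with edgeR 4.0.16 in R 4.3.3 (TMM, filterByExpr, quasi-likelihood, library as a block, Benjamini-Hochberg adjustment), checked on simulated data, and DESeq2 1.42.0 was an alternative. The libraries are pools without replicates, so the p-values measure the spread of the difference over 3 libraries that are also 3 stages. Stages were compared by ratios of CPM with 1 CPM added and by exact intervals, which cover counting error only. Total UMIs in kept barcodes were 11054316, 5076432 and 7846590 in stage order. In the summed selected barcodes 1 UMI is 2.43, 3.87 and 1.96 CPM. Doublets were kept: scrublet in scanpy 1.11.5 called 5 barcodes by itself, too few to be relied on, and leaving out the 190 with the highest scores, of which 4 were selected, was an alternative. Shares were thinned to 1500 UMIs, which left out 3, 4 and 10 selected barcodes. Genes were named by rule: the rule genes, the highest 4 and the largest differences of each list, the 10 largest differences each way between E13.5 and E15.5 from 100 CPM in the higher stage, and the highest 15 of each test from 50 CPM in the higher group (mean over stages). Further list genes were named after their values were seen. Promoter windows came from RefSeq (GRCm38.p6).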

Additional observations from a re-analysis of the deposited data

How the results depend on the processing

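The share of barcodes selected moved with the rule. In stage order it was 2.71, 4.03 and 5.04% of barcodes with 1000 genes, 3.95, 5.52 and 5.64% with 2 marker genes, 0.623, 1.30 and 2.16% with 4, and 2.98, 4.23 and 5.49% without exclusion genes. At E13.5 it was 2.52% with exclusion from 2 UMIs and 1.06% after thinning. As deposited, 31.9% of selected barcodes at E14.5 had a Cbr2 UMI. Against keratin-positive barcodes, higher and lower genes numbered 40 and 40 by DESeq2, 311 and 189 without a filter, 38 and 19 with 4 marker genes, and 36 to 486 and 24 to 421 with a library left out. The library is the replicate block: without this pairing they numbered 21 and 32. Against all other barcodes, lower genes numbered 333 by DESeq2 and 1254 without a filter. Leaving out a library gave 302 to 1208 higher and 367 to 1187 lower, and no replicate block 0 and 0. Without barcodes holding mesenchymal or neuronal markers, chosen after seeing the data, they numbered 1066 and 1572. Of 365 values of named genes in these tests, 31 lost the call, 23 of them without the block, and 0 reversed. The counts over 2-fold, upward and downward, were 1240 and 925 (E14.5 against E13.5), 753 and 670 (E15.5 against E14.5) and 1283 and 868 (E15.5 against E13.5) from 20 CPM. With 4 marker genes they were 726 downward, 525 and 561, and 638 downward, and by mean CPM per barcode 478 downward for E15.5 against E14.5. Without barcodes of other epithelia or neurons, also chosen after seeing the data, they were 1090 and 897, 497 and 681, and 754 downward. In that subset the multiciliated median was 4.68, -0.30 and 5.23 in the same order, that of G2 and M phase -1.60, 0.86 and -0.82, S phase 0.45 and early response 0.059 for E15.5 against E14.5. The log2 ratio of Anks1b there, 3.34, comes from 2 UMIs at E15.5 and 0 at E13.5, under the limit of 3 UMIs, and shows no reversal. With 5 CPM added, the multiciliated median between the first and last stage was 2.51. The cause of these shifts was not tested. Depth limits genes under 7.30, 11.6 and 5.89 CPM, the level of 3 UMIs.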

Other observations

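Barcodes outside the selection held much of the Bpifa1 signal at E15.5: 9 other barcodes carried 536 Bpifa1 UMIs, beside 231 in the 12 selected ones. Cbr2 was seen in 2, 19 and 51 other barcodes in stage order, beside 0, 15 and 38 selected ones. Of the barcodes with 3 or more marker genes that an exclusion gene turned away, 26, 3 and 11 were turned away by a single UMI.
Many selected barcodes held few airway markers: 66 of 67 at E13.5, 22 of 47 at E14.5 and 38 of 92 at E15.5 had neither Cbr2 nor Bpifa1 and fewer than 2 secretory, multiciliated or sustentacular markers. Oc90, an otoconial matrix protein of the inner ear, had 37, 31 and 0 UMIs in selected barcodes, and 32 of the 37 lay in 1 barcode. Gm15614 had 90 of its 96 UMIs at E14.5 in 1 barcode, and Trip4 had 81 of its 111 at E15.5 in 1 barcode.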
